A study of Arabidopsis thaliana with 12 samples.

Results

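The response to Trichostatin A (TSA), an inhibitor of histone deacetylases, was followed across all genes in *Arabidopsis thaliana* seedlings in which the stem cell factor WUSCHEL (WUS) had been activated. It rests on the 6 WUS-GR libraries among the 12 of the count table, and 17079 of the 34262 genes listed had enough counts to be tested. WUS-GR seedlings carry *pUBI10::mCherry-GR-linker-WUS*, in which a ubiquitin promoter active in most tissues drives WUS joined to the glucocorticoid receptor, and dexamethasone (DEX) lets the fusion protein enter the nucleus. All of them came from a single homozygous line. Both groups were whole seedlings harvested 5 days after germination and both had been kept for 2 h in solution with Silwet and 25 µM DEX. The solution of 1 group also held 1 µM TSA, and 3 libraries were made per group, as biological replicates according to the methods. The methods give a lower DEX concentration than the labels, and the solvent of TSA in the seedling treatment is not given in the sources used here. WUS was thus active in both groups, and no WUS-GR library without DEX was used. Wild-type Col-0 seedlings of the same age, treated in the same ways, gave 3 libraries with and 3 without TSA, which serve here for comparison.

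Histone acetyltransferases place acetyl groups on the tails of histones, where they loosen chromatin and attract the transcription machinery, and histone deacetylases take them off. Plants have 3 families of deacetylases. The RPD3-type enzymes, with HDA6 and HDA19 as the best studied members in *Arabidopsis*, carry a zinc ion in the active site, which TSA binds. The sirtuins use NAD instead and are insensitive to it, and the HD2 proteins are found in plants. RPD3-type enzymes are brought to genes by co-repressors of the TOPLESS family, with which WUS interacts, and they are known for roles in silencing, in light and stress responses and in development.

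The 6 libraries held between 14810658 and 20803934 counts, the smallest being replicate 3 with TSA. Replicates correlated at 0.9964 to 0.9977 (Pearson r of log2 CPM) and differed by more than sampling noise, the chi-square divided by its degrees of freedom running from 6.98 to 16.1. Levels are given as CPM, counts relative to the library total after TMM scaling within a genotype, and differences as log2 fold changes with their standard errors (SE) from edgeR's quasi-likelihood test, TSA against no TSA. A gene is called where the p-value after Benjamini-Hochberg adjustment over all genes tested is under 0.05, and "rose" and "fell" are used for called genes alone. TMM factors were 1.13 to 1.16 without and 0.868 to 0.888 with TSA. With library totals alone the median of all genes shifts by -0.38 on the log2 scale, so small changes depend on the scaling, and every fold change is relative to the bulk of genes. Shoot and leaf markers summed to 2470 to 2980 CPM without and 5230 to 5950 CPM with TSA, and all 7 rose. Of the root markers 8 of 9 were matched, they summed to 11 to 15.9 CPM without and 22.3 to 27.9 CPM with TSA, and the root hair genes *EXPA7* and *COBL9* were at 0 in all 6 libraries, so that the label whole seedling is borne out for the shoot but not for root hairs. The 8 seed markers summed to at most 0.685 CPM, the 4 flower markers to at most 1.55 CPM and the matched pollen marker to at most 0.304 CPM in any library.

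TSA changed most of the measured transcriptome of the WUS-GR seedlings. Of 17079 genes tested, 12579 (73.7%) were called, 6077 (35.6%) higher and 6502 (38.1%) lower with TSA. These 2 shares stand beside the counts of every gene list below. A change of at least 2-fold was called for 2671 genes upward (15.6%) and 3072 downward (18.0%). Changes of at least 8-fold were called for 210 genes upward and 224 downward, and of at least 32-fold for 14 and 17. The central 90% of all log2 fold changes lay between -1.95 and 1.94. Direction went with the level of the gene. Among genes with a mean log2 CPM over 7, 66.1% rose and 17.4% fell, whereas between 1 and 3 on this scale 28.4% rose and 43.9% fell.

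**Figure D1:**
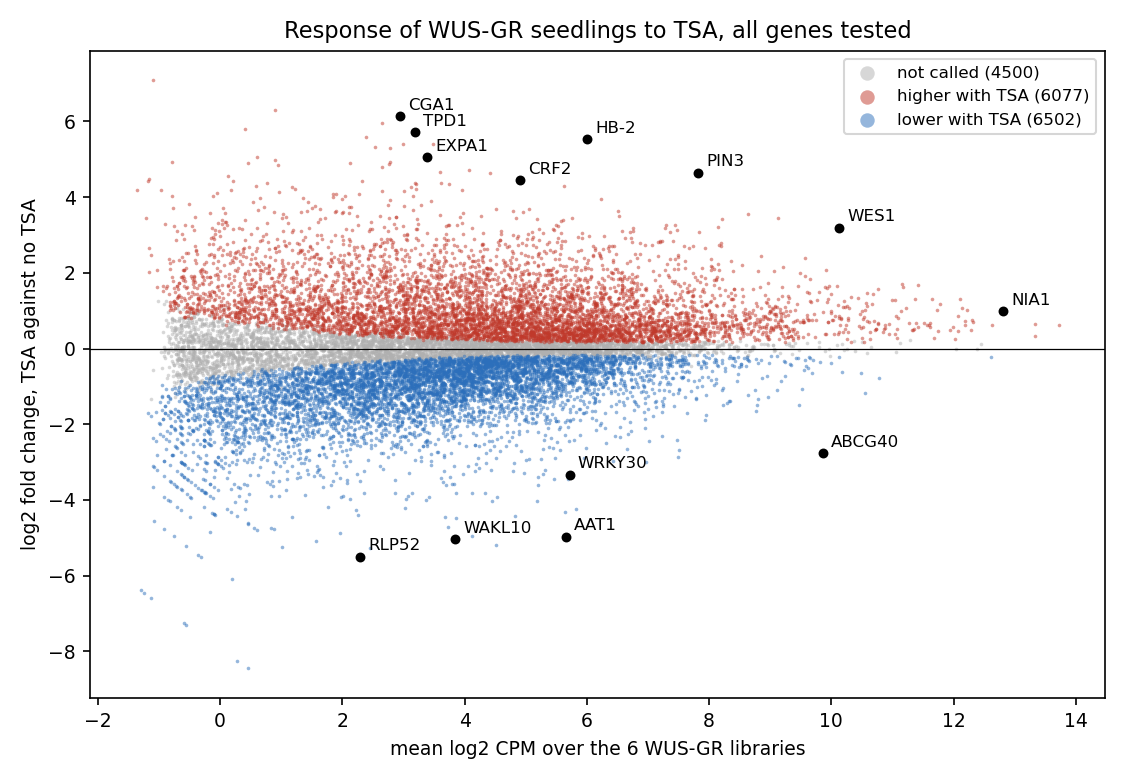
Each point is a gene, with the mean log2 CPM over the 6 WUS-GR libraries on the x axis and the log2 fold change, TSA against no TSA, on the y axis, coloured by the call. The 6077 red and 6502 blue points span the whole range of levels, and red points prevail at the right, where 66.1% of genes with a mean log2 CPM over 7 rose.

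Where the mean log2 CPM was above 1, the largest rises were those of a pair of transcription factors for greening. *CGA1* and *GNC* encode GATA factors that promote chloroplast development and respond to light, nitrate and cytokinin. *CGA1* had 0.361, 0.0428 and 0.259 CPM in the libraries without TSA and 18.1, 15.5 and 13.9 CPM with it. Its 3 TSA libraries lie far above the others, and the log2 fold change was 6.14 (SE 0.28, edgeR adjusted p = 3.58e-09). *GNC* went from 0.181, 0.386 and 0.0432 CPM to 13.6, 14.4 and 10.8 CPM, again with no overlap, a log2 fold change of 5.95 (SE 0.30). *GATA15*, another GATA factor of the same class, had at most 2 counts in any library without TSA and 4.06, 4.47 and 3.19 CPM with it, at least 29.8-fold higher against a floor of 3 counts per library.

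*HB-2*, a homeodomain-leucine zipper factor best known for its fast induction by shade, was at 2.30, 2.83 and 2.98 CPM without TSA. With TSA it was at 137, 120 and 122 CPM. All TSA libraries were thus far above all others, and its log2 fold change of 5.54 (SE 0.11) had the smallest SE among the 12 leading rises. The others of the 12 were *TPD1*, a small secreted protein known from anther development, at 5.71, *GPT2*, a glucose 6-phosphate transporter of the plastid envelope, at 5.60, the F-box gene *HWS* at 5.41, *MYB77*, a MYB factor of auxin-responsive growth, at 5.34, the expansin *EXPA1* at 5.06, the polyamine oxidase *PAO5* at 4.93, and *AT5G12900*, *AT1G16500* and *AT3G08600*, at 5.41, 5.30 and 4.91. All 12 were under 3 CPM in each library without TSA and above 6 CPM in each library with it.

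The promoters of 3 leading rises and 2 leading falls are shown so that the genes at the ends of the response can be compared, together with that of *LHCB2.3*, the photosynthesis gene with the largest rise. Each window runs from 250 bases before to 50 bases after the annotated start of the gene, on the strand of the gene (RefSeq, TAIR10.1). Capitals mark a match, on either strand, to the W-box core TTGAC, the G-box CACGTG, the auxin response element TGTCTC or the heat shock element GAANNTTC. These are the letters known to be bound by WRKY factors, by bHLH and bZIP factors, by auxin response factors and by heat shock factors. The windows are chr4:13252834-13253133 (plus strand) for *CGA1*, chr5:22991481-22991780 (minus) for *GNC*, chr4:9448864-9449163 (plus) for *HB-2*, chr3:10255656-10255955 (plus) for *LHCB2.3*, chr5:9038610-9038909 (plus) for *RLP52* and chr1:29982770-29983069 (minus) for *WAKL10*.
CGA1: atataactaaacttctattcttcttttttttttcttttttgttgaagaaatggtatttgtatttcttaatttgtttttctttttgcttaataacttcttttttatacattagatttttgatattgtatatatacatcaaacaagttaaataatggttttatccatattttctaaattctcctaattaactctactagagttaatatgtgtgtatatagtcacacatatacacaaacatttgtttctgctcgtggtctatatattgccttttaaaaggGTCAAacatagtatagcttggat
GNC: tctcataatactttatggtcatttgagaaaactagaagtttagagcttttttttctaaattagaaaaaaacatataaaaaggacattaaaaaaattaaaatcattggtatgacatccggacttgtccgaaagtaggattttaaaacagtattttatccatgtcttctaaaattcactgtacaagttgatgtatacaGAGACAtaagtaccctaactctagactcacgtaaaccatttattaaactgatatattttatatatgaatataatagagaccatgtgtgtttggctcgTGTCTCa
HB-2: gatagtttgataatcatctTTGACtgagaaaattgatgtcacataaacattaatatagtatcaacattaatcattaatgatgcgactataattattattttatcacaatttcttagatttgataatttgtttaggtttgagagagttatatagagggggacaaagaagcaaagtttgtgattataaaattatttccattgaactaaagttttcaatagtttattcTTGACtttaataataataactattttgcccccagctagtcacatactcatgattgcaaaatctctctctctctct
LHCB2.3: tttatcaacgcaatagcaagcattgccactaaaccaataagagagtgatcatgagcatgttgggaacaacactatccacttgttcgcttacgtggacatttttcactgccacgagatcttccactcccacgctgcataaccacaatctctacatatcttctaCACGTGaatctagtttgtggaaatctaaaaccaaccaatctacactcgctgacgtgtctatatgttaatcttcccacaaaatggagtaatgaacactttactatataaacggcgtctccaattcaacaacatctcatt
RLP52: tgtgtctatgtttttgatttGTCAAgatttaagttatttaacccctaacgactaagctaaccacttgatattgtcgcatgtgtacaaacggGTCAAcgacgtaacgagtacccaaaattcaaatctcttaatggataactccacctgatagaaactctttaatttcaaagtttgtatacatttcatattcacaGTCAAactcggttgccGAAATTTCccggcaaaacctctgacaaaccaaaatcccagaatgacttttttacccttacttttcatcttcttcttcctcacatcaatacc
WAKL10: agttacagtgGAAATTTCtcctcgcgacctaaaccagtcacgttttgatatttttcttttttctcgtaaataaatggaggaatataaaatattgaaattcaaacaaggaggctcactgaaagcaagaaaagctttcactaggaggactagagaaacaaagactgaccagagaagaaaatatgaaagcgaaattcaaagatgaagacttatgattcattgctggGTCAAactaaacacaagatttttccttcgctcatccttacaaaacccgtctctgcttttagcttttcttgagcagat
The window of *RLP52* holds 3 W-box cores and a heat shock element and that of *WAKL10* holds a single one of each. *CGA1* has a W-box core after its start and *HB-2* has W-box cores at both ends of the part before it. A match is a run of letters and was not tested as a binding site.

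The largest falls, under the same limit on level, were in genes of several kinds. *RLP52*, a receptor-like protein of the plasma membrane with a part in resistance to powdery mildew, fell from 9.30, 8.91 and 7.65 CPM to 0.286, 0.166 and 0.0761 CPM, a log2 fold change of -5.50 (SE 0.27). *WAKL10*, a wall-associated kinase-like receptor, went from 31.2, 22.9 and 25.7 CPM to 0.458, 0.938 and 1.06 CPM, at -5.04. *AAT1*, a transporter of cationic amino acids, went from 106, 91.1 and 90.2 CPM to 2.98, 2.43 and 3.88 CPM, at -4.97 (SE 0.14). In each of these genes the lowest library without TSA lay far above the highest with it.

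Further leading falls were *PR4*, a chitin-binding pathogenesis-related protein, at -4.94, the glutathione transferase *GSTU3* at -4.72, *AT1G26420*, annotated as a FAD-binding berberine family protein, at -4.48 and *AT1G13880*, *AT1G66060*, *AT3G49540* and *AT1G24140*, at -5.20, -5.08, -5.27 and -4.46. The bHLH gene *AT5G56960* had 3.79, 3.73 and 2.51 CPM without TSA and at most 3 counts in any library with it, at least 17.7-fold lower. *AT1G13880* had the tightest values of these falls, with 42.7, 44.4 and 42.4 CPM against 1.14, 1.38 and 0.913 CPM, and none of the leading falls named overlapped between the groups, as the naming rule required.

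**Figure D2:**
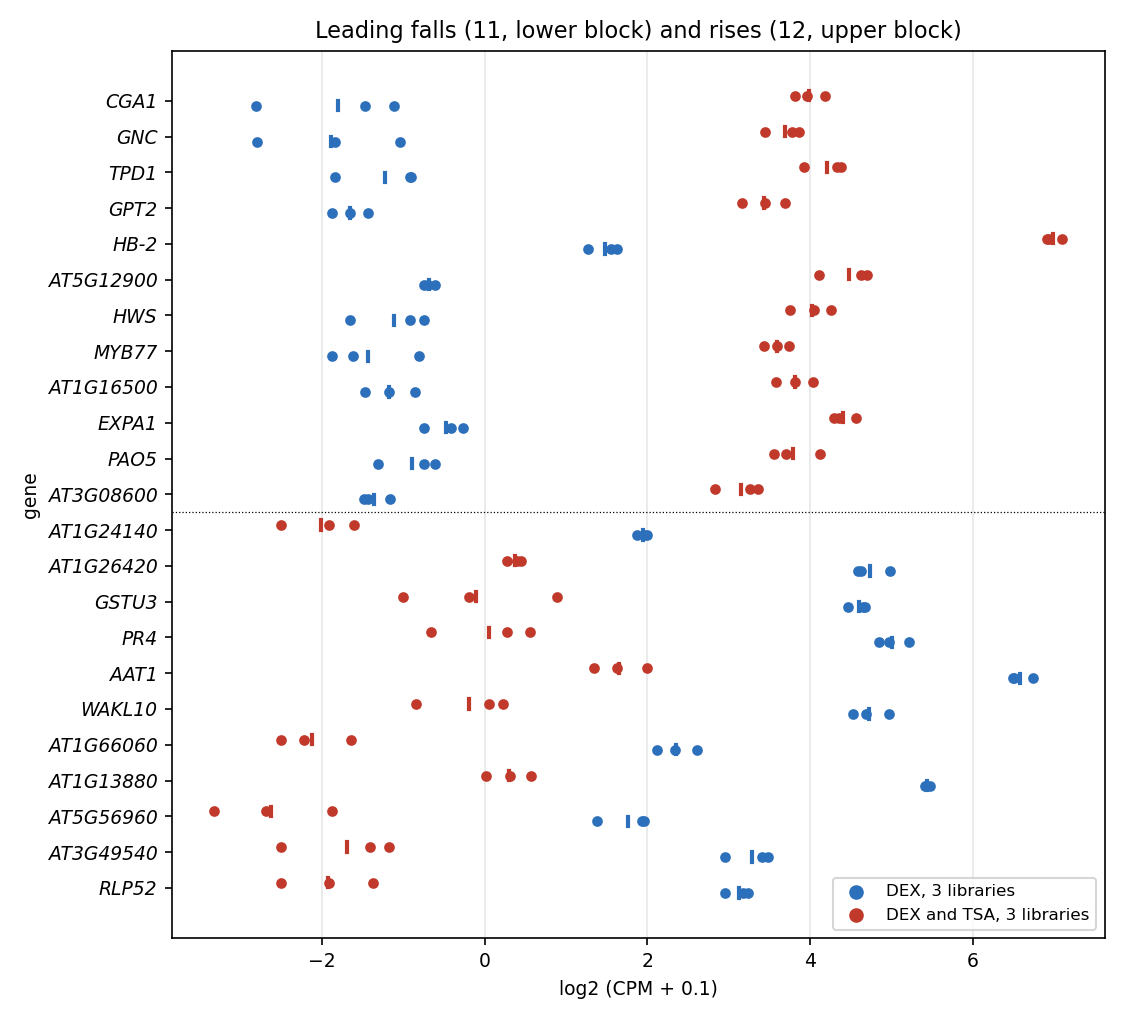
CPM per library, as log2 of CPM plus 0.1, of the 12 genes with the largest rise and 11 of those with the largest fall in the WUS-GR seedlings, 3 libraries with DEX (blue) and 3 with DEX and TSA (red), with short bars at the group means of the log2 values. Blue and red points do not overlap in any gene, and each gene of the upper block is under 3 CPM without TSA.

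By gain or loss in CPM, a scale that favours long and abundant transcripts, other genes led. *CAB1*, a light-harvesting protein of photosystem II, rose from 10380, 9377 and 12315 CPM to 16129, 16611 and 16148 CPM. The nitrate reductase *NIA1* rose from 4927, 4997 and 4626 to 9398, 9774 and 9512 CPM, and the asparagine synthetase *DIN6* from 7798, 8525 and 7970 to 12092, 11986 and 13752 CPM. These are the 3 largest gains in mean CPM among nuclear genes, and in each of them the groups are apart. The 3 largest losses were *ABCG40*, a transporter that imports abscisic acid, from 1769, 1614 and 1482 to 216, 302 and 196 CPM, *COL5*, a CONSTANS-like zinc finger protein, from 2099, 2027 and 2100 to 960, 907 and 891 CPM, and the cytochrome P450 *CYP81D8* from 2440, 2258 and 2008 to 1267, 1378 and 1258 CPM. With library totals alone *CAB1* still rose, by 0.23 in place of 0.61 on the log2 scale.

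Some genes were detectable in 1 group alone, with at most 3 counts in each library of a group and at least 10 in each of the other. Of the 34262 genes listed, 13 appeared with TSA in this way, and 130 were present without TSA alone. The limits are in counts, and 3 counts were 0.129 to 0.135 CPM without and 0.166 to 0.228 CPM with TSA. The rule is thus met more easily by genes present without TSA, and the 2 numbers are not on an equal footing. Besides *GATA15*, those with the most CPM were *ACS8*, an enzyme of ethylene synthesis, at 3.84, 2.87 and 2.66 CPM and at least 23.8-fold higher, *AT1G30280*, annotated as a DnaJ domain protein, at least 21.3-fold, and *ASY1*, a HORMA domain protein of the meiotic chromosome axis, at least 21.5-fold. *ASY1* overlaps an antisense transcript with 163 counts, so its reads are uncertain. Of the 130, those with the most CPM besides *AT5G56960* were *AT3G50420*, at least 15.9-fold lower, *AT4G40020*, at least 15.4-fold, and *AT5G59680*, at least 15.1-fold. They were at 1.93 to 3.57 CPM without TSA, near the lower end of what the test could use.

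Transcripts of the enzymes that write and erase acetylation changed themselves. All 8 RPD3-type deacetylase genes tested were called, 2 higher and 6 lower, with a list median of -0.57 beside -0.03 over all genes. *HDA6* rose from 20.3, 17.6 and 18.7 CPM to 58.2, 56.2 and 49.9 CPM, a log2 fold change of 1.54 (SE 0.09, edgeR adjusted p = 2.23e-08), and its 2 groups were well apart. *HDA19* rose from 82.9, 84.6 and 97.2 to 141, 132 and 129 CPM, at 0.60 (SE 0.08). *HDA9* fell from 14.7, 15.4 and 15.8 to 5.50, 5.13 and 5.63 CPM, at -1.50, and *HDA2* from 16.3, 16.3 and 15 to 5.95, 5.13 and 5.25 CPM, at -1.54. *HDA14*, *HDA15*, *HDA5* and *HDA8* fell less, at -0.67, -0.63, -0.51 and -0.47. *HDA7*, *HDA10*, *HDA17* and *HDA18* had too few counts to test. *HDA2* shares 34 bases with *AT5G26030* on the other strand, which had 9759 counts, and its values are uncertain to that degree.

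The acetyltransferases moved mostly down, with 8 of 11 tested lower, 2 higher and a list median of -1.31. All 4 tested genes of the HAC family, the plant relatives of CBP and p300, fell, with *HAC12* from 50.6, 49.9 and 43.1 to 8.93, 10.7 and 10.4 CPM, a log2 fold change of -2.26 (SE 0.10), *HAC5* at -1.92, *HAC1* at -1.48 and *HAC4* at -1.31. *HAG1*, the GCN5 of plants, fell at -1.32, and the MYST-family genes *HAM2* and *HAM1* at -1.43 and -0.56. *HAG2* and *HAF1* rose, at 1.09 and 0.75, and *HAF2* was not called (-0.13). *HAC1* went from 149, 148 and 131 to 50.1, 55.6 and 47.1 CPM, and the groups of the 10 genes called do not overlap, as is so for 36.4% of all genes with TSA above and 39.7% with TSA below. Of the HD2 genes, *HD2C*, *HDT4* and *HD2B* rose, at 0.98, 0.79 and 0.65, and *HD2A* fell at -0.80. The sirtuin genes *SRT1* and *SRT2* fell at -0.90 and -1.11.

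**Figure D3:**
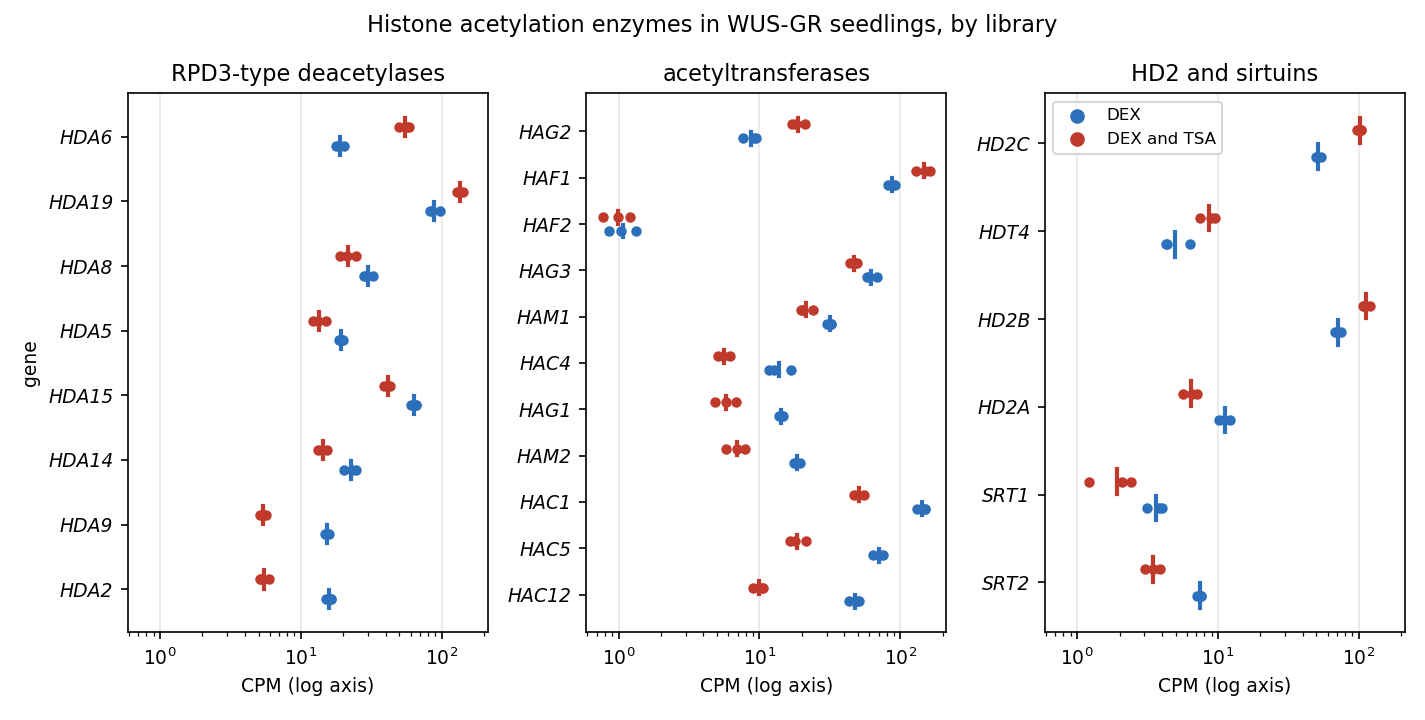
CPM per library on a log axis for the RPD3-type deacetylase, acetyltransferase, HD2 and sirtuin genes tested, 3 WUS-GR libraries with DEX (blue) and 3 with DEX and TSA (red), with bars at the group means. Red lies right of blue for *HDA6*, *HDA19*, *HAG2*, *HAF1*, *HD2C*, *HDT4* and *HD2B*, and left of it for the other genes called.

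The co-repressors that carry deacetylases to genes changed little. Of 21 tested, 7 rose, 5 fell and none changed 2-fold, and the list median of 0.13 turned negative with library totals alone. *TPL* was not called (mean 285 CPM without and 320 CPM with TSA), whereas *TPR3* rose at 0.76. In the SIN3-like family *SNL6* rose at 0.88 and *SNL4* fell at -0.93. Histone genes rose together. In the list of 24 histone genes, 18 of 22 tested rose and none fell, with a median of 1.27. The H2A gene *HTA10* went from 2.66, 2.57 and 2.51 to 15.5, 14.2 and 14.2 CPM, at 2.50 (SE 0.12), and the H2B gene *HTB11* from 22.5, 20.7 and 25.3 to 137, 125 and 117 CPM, at 2.47. RNA had been selected by its poly(A) tail, and the near-identical copies of these families may share reads. Of the Polycomb and Trithorax genes 7 rose and 12 fell among 22, with *ULT1*, a Trithorax-group SAND domain protein, at 2.25 and *VRN2*, a subunit of the Polycomb complex of vernalization, at -1.39. In DNA methylation 6 of 16 were called each way, 37.5% and so near the 35.6% and 38.1% of all genes. There the chromomethylase *CMT2* rose at 1.41 and *SUVH6* fell at -1.74, though *SUVH6* shares 1496 bases with *AT2G22730* on the other strand.

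Most tested genes of auxin transport and perception rose. In transport 9 of 11 tested rose and none fell (median 1.31), all 6 receptor genes rose (median 1.08), and so did all 4 synthesis genes with enough counts out of 14 (median 2.68). *PIN3*, an efflux carrier that redirects auxin in tropisms, went from 16.6, 17.8 and 17.5 CPM to 479, 436 and 386 CPM. The groups are far apart, with a log2 fold change of 4.65 (SE 0.10, edgeR adjusted p = 9.48e-11). The influx carrier *AUX1* rose at 2.13, from a mean of 72.9 to 320 CPM. The receptor gene *TIR1* rose from 27.6, 30.1 and 30.4 to 103, 101 and 95.2 CPM, at 1.76, and *AFB1* at 2.05. *AFB1* shares 51 bases with *AT4G03180* on the other strand. *TAA1*, the aminotransferase of auxin synthesis, rose from 2.71, 2.91 and 3.42 to 16.8, 16.6 and 17.4 CPM, at 2.49, and *YUC8*, which acts after it, from 2, 6 and 2 counts to 46, 65 and 36. Like *YUC2* and *TAR2*, *YUC8* was under 1 CPM without TSA and entered the test through its TSA libraries, so the count of 4 is no support for a direction of the family.

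Downstream of the receptors the picture was mixed. Aux/IAA genes, which encode the repressors that auxin removes, rose in 17 of 23 cases and fell in 4 (median 0.78), from *IAA11* at 3.47 to *IAA30* at -1.98. Of 15 *ARF* genes, the transcription factors they repress, 8 rose and 3 fell (median 0.71). *ARF8* rose from 2.89, 3.39 and 2.42 to 23.5, 23.7 and 24.0 CPM, at 3.03 (SE 0.12). *ARF5* (*MP*) fell from 9.75, 14 and 16.6 to 8.07, 8.56 and 9.05 CPM, at -0.66 (SE 0.17). In *ARF5* the 2 groups came close, and it shares 23 bases with a neighbour. *ARF1* fell at -0.66 as well. Among GH3 genes, which conjugate auxin and other acids to amino acids, 5 of 8 rose. *WES1* rose from 204, 225 and 232 to 2066, 1934 and 2059 CPM, at 3.20 (SE 0.08), and *BRU6* fell from 178, 173 and 149 to 72.6, 74.1 and 81.2 CPM, at -1.13. *SAUR* genes with a mean log2 CPM over 1 ranged from *AT3G60690* at 3.70 to *AT5G50760* at -3.82, and 61 of the 80 matched had too few counts to test.

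Regulators of the shoot meristem and of leaf polarity rose in 25 of 34 cases and fell in 2, with a median of 1.26. *CLV1*, the receptor kinase of the CLAVATA pathway that restricts the stem cell domain, rose from 10.2, 11.6 and 9.43 to 97.4, 88.3 and 72.6 CPM, at 3.05 (SE 0.12), and its relative *BAM1* from 23.1, 22.6 and 22.0 to 204, 200 and 179 CPM, at 3.11. Both sets of TSA libraries lie far above those without. *KAN2*, a GARP factor of the abaxial leaf side, rose from 0.587, 0.771 and 0.562 to 8.47, 8.00 and 7.15 CPM, at 3.61, and *REV*, an HD-ZIP III factor of the adaxial side, from 6.91, 8.74 and 8.00 to 60.3, 58.2 and 55.9 CPM, at 2.88. *KNAT2* and *KNAT6*, homeobox genes of the meristem, rose at 2.50 and 2.03, whereas *STM* was not called (0.52, SE 0.23). *ZPR1*, a small leucine zipper protein that disables HD-ZIP III factors, fell at -1.43 and *WOX2*, a homeobox gene of the early embryo, at -1.06. *CLV3* had at most 4 counts in a library and was not tested. As the tissue is bulk, more cells of a type and more RNA per cell cannot be told apart.

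*WUS* itself was at 5098, 5067 and 4789 CPM without and 7895, 7854 and 7200 CPM with TSA, a log2 fold change of 0.62 (SE 0.07) that shrank to 0.23 with library totals alone. In Col-0 it stayed between 1.7 and 2.5 CPM, and the transgene holds the *WUS* coding sequence, so its transcripts are counted here under a promoter that is not that of *WUS*. A further list held 17 genes of auxin and related functions that the study had expressed under a stem cell promoter. The list was the study's own choice, and its count is no independent evidence of direction. Of 14 tested, 12 rose and 1 fell (*ARF5*), with *CRF2*, a cytokinin response factor, in the lead, from 2.12, 2.53 and 3.29 to 62.2, 65.1 and 46.6 CPM.

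Most of the cytokinin genes with enough counts to test rose. Of the type-A *ARR* genes, fast response genes that dampen cytokinin signaling, 4 of 5 tested rose, and 5 of the 10 matched were not tested. *ARR5* went from 0.496, 0.728 and 0.303 to 8.53, 7.07 and 8.29 CPM, at 3.95 (SE 0.24), and *ARR7*, a target of WUS, rose at 2.76. With 11, 17 and 7 counts without TSA, *ARR5* entered the test through its TSA libraries. Its part of the count is no support for a direction of the family. *ARR9* fell from 14.4, 13.9 and 13.4 to 9.90, 9.27 and 9.43 CPM, at -0.54. In metabolism and response 8 of 14 rose and 2 fell, among them *LOG8* and *LOG1*, enzymes that activate cytokinin, at 2.80 and 2.34, and *CRF6* at -0.84. In this list 17 of the 31 matched genes had too few counts to test.

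Nuclear genes of photosynthesis rose almost as a block and by little. Of 55 tested, 53 rose and none fell, with a median of 0.64 and 9 changes of at least 2-fold. With library totals alone 33 were called higher and 2 lower, with a median of 0.26, so the block depends in part on the scaling. Of all genes with a mean log2 CPM over 7, 66.1% rose under TMM, with a median of 0.45. *LHCB2.3*, an antenna protein of photosystem II, went from 60.2, 65.8 and 52.8 to 218, 276 and 261 CPM, at 2.08 (SE 0.11), but it shares 595 bases with *AT3G27700* on the other strand. Of 100 plastid-encoded genes tested 9 rose and none fell, and in Col-0 38 of 89 rose and none fell. The interaction was called higher for 1 of 100 such genes and lower for none, so the numbers of calls are no measure of a difference between genotypes. The median of the plastid-encoded list in WUS-GR, 0.14, turned negative with library totals alone. The share of plastid counts ran from 0.315% to 1.32% over the 6 libraries of RNA selected by its poly(A) tail, and *ATCG00920*, the largest rise, was at 17.3, 13.6 and 17.3 CPM without and 19.9, 76.8 and 57.4 CPM with TSA. *HY5*, the bZIP factor that promotes greening in light, rose from 2.35, 2.27 and 3.93 to 29.7, 26.6 and 26.2 CPM, at 3.27 (SE 0.17). In light signaling 20 of 34 rose and 10 fell, and the phytochromes split, with *PHYB* and *PHYA* higher at 1.52 and 0.96 and *PHYD* and *PHYC* lower at -2.60 and -1.55. In the clock 10 rose and 9 fell among 27, which is 37.0% and 33.3% beside 35.6% and 38.1% of all genes. They ran from *LNK3* at 2.45 to *PRR3* at -2.27, and the median of 0.10 turned negative with library totals alone.

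Stress genes moved both ways. Of 36 heat shock factors and chaperones 15 rose and 17 fell, with a median of -0.15. That is 41.7% and 47.2% beside 35.6% and 38.1% of all genes. Among those that rose, *HSP81-3*, an HSP90, went from 130, 133 and 136 to 690, 604 and 536 CPM, at 2.20 (SE 0.09), and *HSC70-1* from a mean of 870 to 2602 CPM, at 1.58. Among those that fell were the small heat shock proteins *HSP17.6A*, from 149, 181 and 185 to 35.5, 39.7 and 37.3 CPM, at -2.19, and *HSP22* at -3.60. The heat shock factors *HSFA2* and *HSFA4A* fell, at -1.68 and -2.02, and *HSFA1E* rose, at 1.96. *HSP81-3* and its neighbour *HSP81-2* are near-identical and may share reads.

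Among WRKY factors, best known from defence, 12 of 41 tested rose and 19 fell, with a median of -0.26. *WRKY30* fell from 101, 81.9 and 101 to 9.45, 9.05 and 9.58 CPM, at -3.33 (SE 0.10), and *WRKY45* and *WRKY48* at -3.04 and -2.74, whereas *WRKY21* rose at 1.78. *FRK1*, a kinase gene of the response to flagellin, fell from 26.0, 17.3 and 21.0 to 5.32, 2.82 and 3.88 CPM, at -2.42. It shares 175 bases with *AT2G19180*. *ICS1*, which makes salicylic acid, rose from 1.62, 1.67 and 1.08 to 12, 14.3 and 11 CPM, at 3.09. Of 27 rapid stress genes 15 rose and 9 fell, and of 17 genes of salicylic acid and immunity 8 rose and 6 fell. The medians of both lists, 0.34 and 0.26, turned negative with library totals alone.

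Other hormone lists held changes both ways. In ethylene 17 of 31 rose and 8 fell, with *EIL1*, a transcription factor of the pathway, at 2.39, and *ACS2*, a synthase like *ACS8*, at -2.52. In the brassinosteroid list 17 of 24 rose and 5 fell, led by the bHLH gene *BEE1* at 3.99, and *ROT3*, a cytochrome P450 of its synthesis, fell from 36.0, 35.5 and 31.1 to 8.19, 6.84 and 7.61 CPM, at -2.18. In jasmonate 9 of 24 were called each way, 37.5% and so near the 35.6% and 38.1% of all genes. There *MYC4* rose at 3.89 and *JAZ5*, a repressor of MYC factors, fell at -2.32. In abscisic acid 20 of 41 rose and 11 fell, with *NCED3*, the enzyme of the rate-limiting step, at 3.45 and the receptor *PYL5* at -1.54. In gibberellin 9 of 20 rose (45.0%) and 7 fell (35.0%), with the DELLA gene *GAI* at 1.78 and the receptor *GID1C* at -1.26. The medians of the jasmonate, abscisic acid and gibberellin lists, 0.04, 0.36 and 0.24, turned negative with library totals alone.

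Genes of growth and of the cell surface rose more often than they fell. Expansins and XTH enzymes, which loosen and remodel the wall, rose in 26 of 36 cases and fell in 4, with a median of 0.89. *EXPA1* went from 0.496, 0.728 and 0.649 to 23.5, 19.5 and 20.4 CPM, and *XTH6* fell at -1.08. Genes of cuticular wax rose in 13 of 15 cases and none fell (median 1.28), with *KCS1*, an enzyme of fatty acid elongation, from 2.30, 5.57 and 2.68 to 30.1, 38.1 and 28.2 CPM, at 3.19 (SE 0.24). Of flavonoid genes 8 of 14 rose, led by *UGT78D2* at 2.73. Cell cycle genes rose in 25 of 44 cases and fell in 11. Those with a mean log2 CPM over 1 ran from *E2FA*, a factor of S phase entry, at 2.50 to the kinase inhibitor *ICK1* at -1.76. TCP, GRF and GIF growth regulators rose in 14 of 26 cases and fell in 6, with *TCP14* at 2.89 and *TCP20* at -0.92.

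Of the lists not yet given, root genes rose in 11 of 14 cases, with *SCR* at 1.67 and *SHR* lower at -0.56, and the call of *SHR* was lost in several alternative fits. Stomatal lineage genes rose in 8 of 13 cases, with *SCRM2* at 1.43 and *STOMAGEN* at -1.28. Nitrate and sugar genes rose in 14 of 24 cases and fell in 6, with the trehalose phosphate synthase *TPS10* at -1.33. Hypoxia genes rose in 4 of 15 cases and fell in 7, with *RAP2.3* at 0.59 and the alcohol dehydrogenase *ADH1* at -2.08. Seed maturation genes rose in 2 of 8 cases and fell in 5, with *VAL3* at 1.24 and the dormancy gene *DOG1* at -1.58. Floral regulators rose in 3 of 14 cases and fell in 4, with *SVP* at 1.42 and *MAF3* at -0.75. DNA replication genes rose in 4 of 16 cases and fell in 2, with *ORC5* at 0.89 and *RNR1* at -1.05. Mitochondria-encoded genes rose in 8 of 25 cases and none fell, led by *ATMG01390* at 0.79. The share that rose is under the 35.6% of all genes. None of the 25 was called either way with library totals alone, so these rises rest on the scaling. The medians of the nitrate and sugar, floral, DNA replication and mitochondrial lists turned negative with library totals alone.

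**Figure D4:**
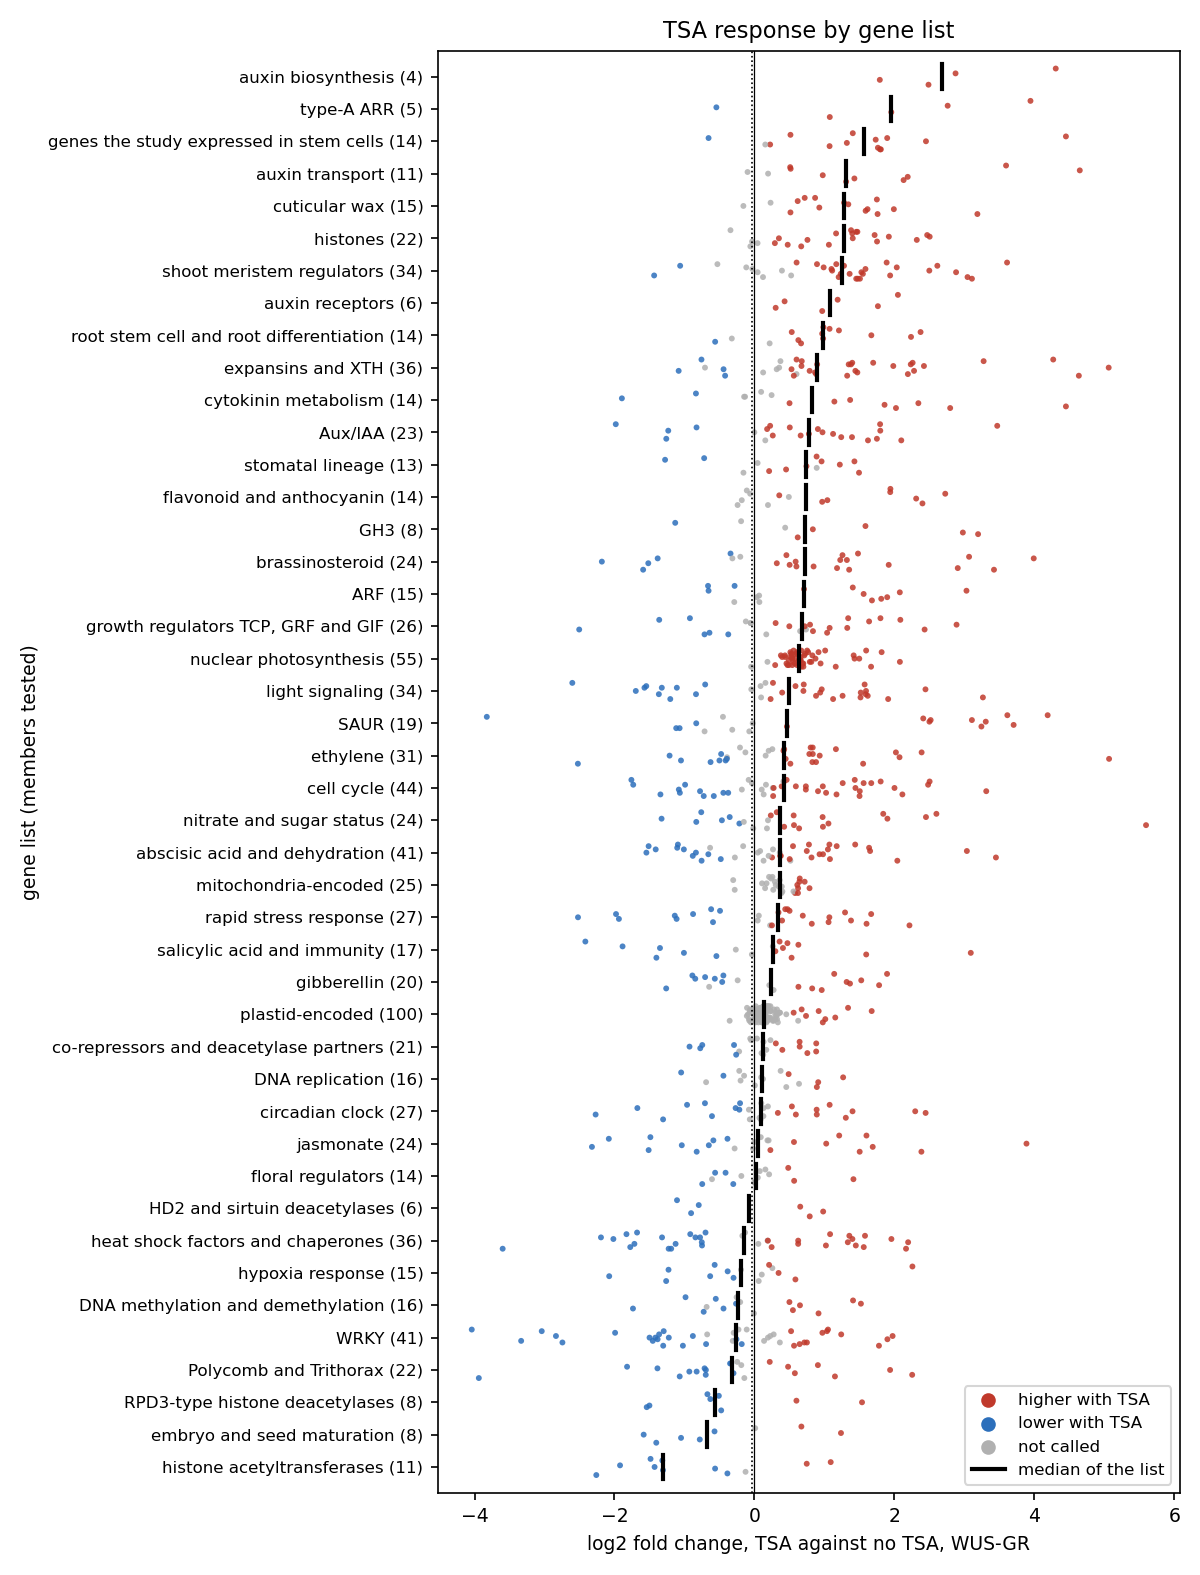
Log2 fold change with TSA in WUS-GR seedlings for each gene tested in the 44 lists, ordered by list median (black bars), with the number tested in parentheses and the median of all genes, -0.03, as a dotted line. Histone acetyltransferases (-1.31) stand at the bottom, auxin biosynthesis at the top is set by genes that entered the test through their TSA libraries, and photosynthesis forms a narrow cluster around 0.64.

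The same treatment of Col-0 seedlings, in libraries that share none with the WUS-GR contrast, called 11092 of 17271 genes (64.2%). Over 16635 genes tested in both genotypes the log2 fold changes correlated with r = 0.794 and rho = 0.779. This is a correlation across genes, which are not independent replicates. The rise was shared by 4153 genes and the fall by 4362. That is 69.1% of the WUS-GR rises and 78.3% of those in Col-0, and 68.9% and 79.6% of the falls. The test of the difference between genotypes, an interaction term fitted over all 12 libraries, called 5560 of 17915 genes (31.0%), 3176 with a higher (17.7%) and 2384 with a lower value in WUS-GR (13.3%). With library totals alone these were 1570 and 5736, so the balance between the directions depends on the scaling.

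Among genes called in both genotypes, 524 moved in opposite directions. The interaction was called for all 524, which opposite calls in the same 12 libraries nearly ensure and which is no further support. Of these, 311 rose in WUS-GR and fell in Col-0, and 213 did the reverse. A further 817 genes rose and 754 fell in WUS-GR, were not called in Col-0 and had an interaction called in the direction of the WUS-GR change. The median absolute change was 0.665 in WUS-GR and 0.572 in Col-0. *PIN3* rose in both, at 4.65 in WUS-GR and 2.38 in Col-0, where it went from 46.4, 40.8 and 37.6 to 220, 218 and 212 CPM (interaction 2.29, SE 0.13). *AT1G13880* fell in both, at -5.20 in WUS-GR and -4.55 in Col-0, and the interaction of -0.63 was called. *WRKY30* fell at -3.33 and at -3.41 in Col-0, and its interaction of 0.11 (SE 0.36) was not called.

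The largest interactions were in genes of unlike function. *GPT2* was at 7.7, 5.8 and 9.1 CPM in Col-0 without TSA and at 6.6, 5.3 and 4.3 CPM with it, whereas in WUS-GR it rose from 0.271, 0.171 and 0.216 to 12.8, 10.8 and 8.82 CPM, an interaction of 6.10 (SE 0.37, edgeR adjusted p = 1.04e-07). *BBX14*, a B-box zinc finger gene, rose in WUS-GR from 0.767, 1.63 and 0.692 to 12, 13 and 10.3 CPM with a Col-0 change of -0.34, an interaction of 3.86. In the other direction, *AT3G22410* and *AT4G16563* fell in WUS-GR, at -1.23 and -1.27, and rose in Col-0, at 3.0 and 2.15. *MSRB7*, a methionine sulfoxide reductase, had 2.80, 3.81 and 0.476 CPM without TSA and at most 3 counts in any library with it, at least 12.5-fold lower. Its library of replicate 3 without TSA was far below the other two, and its interaction (fitted value -5.21, no measure of size) was called at an adjusted p of 0.025 in edgeR.

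The named hormone genes with opposite calls fell in WUS-GR. *BRU6* fell in WUS-GR and rose in Col-0 from 16.4, 14.4 and 13.1 to 49.8, 68.4 and 52.9 CPM, an interaction of -3.07 (SE 0.17). *ARF5* fell at -0.66 and rose at 1.07 in Col-0, and *ARR9* at -0.54 and 1.29. *ADH1* and *XTH6* did the same, at -2.08 and 0.61, and at -1.08 and 1.53. *KCS1* went the other way, at 3.19 in WUS-GR and -0.57 in Col-0, where it was at 32.3, 32.9 and 37.3 CPM without TSA. In list terms the interaction was called higher for 17 and lower for 1 of 27 rapid stress genes, for 19 and 1 of 37 heat shock genes and for 12 and 1 of 24 nitrate and sugar genes. It was called lower for 7 of 15 stomatal and 6 of 23 histone genes and higher for none of either. Beside these counts stand the 17.7% and 13.3% over all genes. With library totals alone the rapid stress, heat shock and nitrate lists had 14 higher and 3 lower, 11 and 4, and 6 and 4, and the stomatal and histone lists had 9 and 14 lower and none higher.

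**Figure D5:**
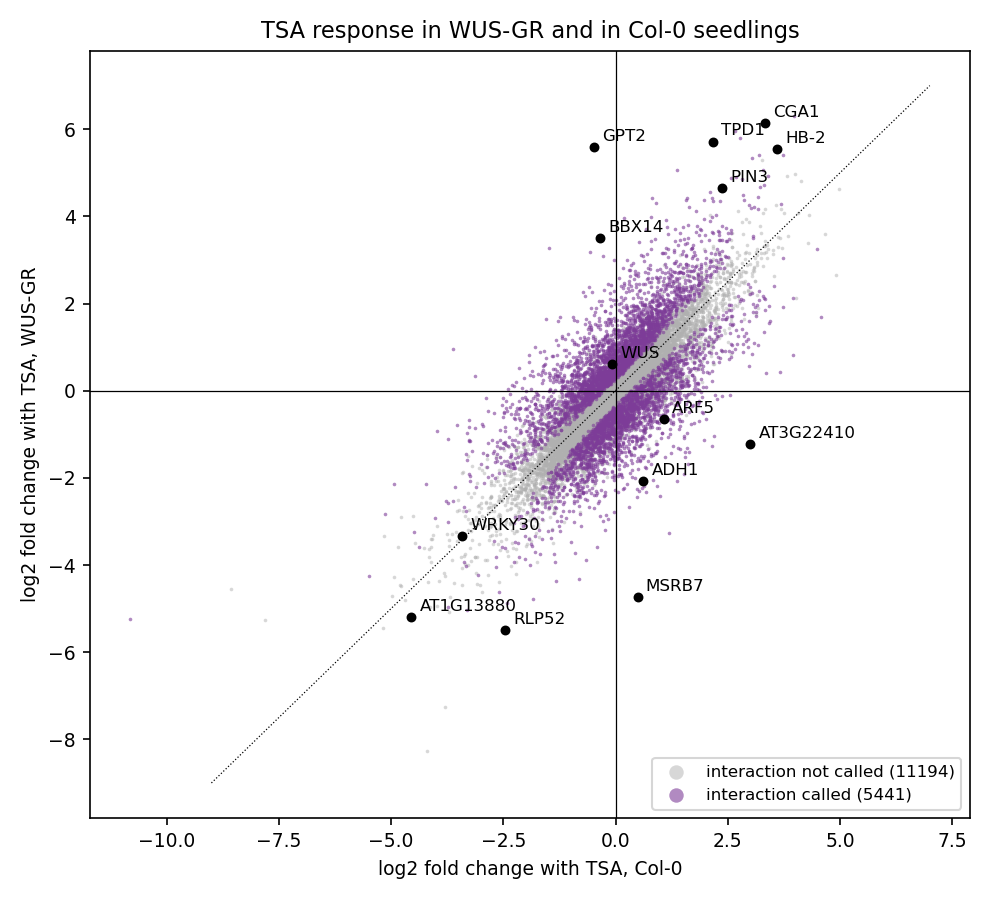
Log2 fold change with TSA in Col-0 (x axis) and in WUS-GR (y axis) for the 16635 genes tested in both, purple where the interaction was called, with the line of equal change dotted. Most genes lie along the line (r = 0.794), while *GPT2*, *BBX14*, *AT3G22410* and *MSRB7* stand far from it.

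Across all 16700 genes with a promoter window, short known motifs were counted on both strands in the same 300 bases as printed for the leading genes. The W-box core TTGAC was in 64.7% (141 of 218) of the genes lower by at least 8-fold, in 46.4% of the 209 higher by at least 8-fold, and in 50.7% of all windows. The G-box CACGTG was in 34.5% (19 of 55) of photosynthesis genes and in 9.35% of all, and the GATA core AGATAA, the letters that factors such as CGA1 and GNC bind, in 50.9% and 29.4%. Among genes higher and lower by at least 8-fold, the G-box was in 11.5% and 8.26%. The GATA core was in 29.7% and 23.9% of these, so the genes that rose most held it about as often as all genes. The auxin response element TGTCTC was in 18.7% of the genes higher by at least 8-fold, in 9.17% of those lower by as much and in 13.4% of all. The heat shock element GAANNTTC was in 9.57%, 15.1% and 11.5%. The site II element GGCCCA, common in genes of ribosomes and growth, was in 8.61%, 12.4% and 20.3%, and the telo-box AAACCCTA in 1.91%, 1.83% and 5.54%. In the larger sets of genes changed at least 2-fold the G-box was in 10.6% of the higher and 8.11% of the lower genes, and the GATA core in 31.1% and 29.0%. For the other motifs given, the shares in these larger sets lay nearer to those of all windows. There the W-box core was in 49.4% of the higher and 54.6% of the lower genes, the auxin response element in 14.3% and 13%, the heat shock element in 10.2% and 12.9%, the site II element in 13.5% and 19.1% and the telo-box in 3.05% and 5.29%. These shares are descriptions, and none was tested.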

How the data were processed

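Whole *Arabidopsis* seedlings (4 groups of 3 libraries, grouped by their labels) were profiled by directional sequencing of poly(A) RNA. The authors aligned reads to TAIR10 with HISAT2 and counted with featureCounts, and the deposited values are raw counts per gene without normalization. The strand setting, the annotation release and the treatment of multimapping reads are not given in the sources used here, so overlapping genes and near-identical copies are uncertain (24 of the 123 named genes overlap another gene, 14 of them one with at least 100 counts).

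Counts were tested with edgeR 4.0.16 in R 4.3.3 (quasi-likelihood F-test, two-sided, TMM, filterByExpr with a minimum count of 10, Benjamini-Hochberg adjustment over all genes tested, threshold 0.05). Treatment was the sole term in the 6 libraries of a genotype, and the interaction came from all 12. The study tested with DESeq2. The SE is the absolute log2 fold change divided by the square root of F. A gene absent from a group was set against a floor of 3 counts per library. Libraries held 14810658 to 21578662 counts, floors cover counting error only, and p-values measure the spread between the libraries of a group. Counts were also simulated with 100 genes changed 2-fold, 100 changed 4-fold and all others unchanged. There the WUS-GR test (16857 genes) found 85% of 2-fold and 97% of 4-fold changes with 8.54% of calls on unchanged genes. The interaction (17606 genes) found 59% and 80% with 11.5%. Both shares of calls on unchanged genes exceed the threshold of 0.05. Far more genes were called in the data, so these values do not describe the contrast itself.

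The contrast, its 44 gene lists and the naming rule were chosen with earlier results of these data known, and lists carry no set test. Named were the 12 largest rises and falls with a mean log2 CPM over 1 and no overlap, the 3 largest gains and losses in mean CPM of nuclear genes, the largest rise and fall of each list with a mean log2 CPM over 1, all RPD3-type genes tested, *WUS*, the 4 genes with the most CPM present in 1 group alone in each direction, and the 3 largest interactions each way with a mean log2 CPM over 1. Every other gene named was picked after its values were seen. A gene that the rule picked is not reported here. Of the list entries 17 were not matched. Promoters and gene names came from RefSeq (TAIR10.1, 16700 promoters matched). Alternatives were DESeq2 1.42.0 (size factors and Wald test), library totals alone, other count filters, thresholds of 0.1 and 0.01, a 2-fold minimum, a fit of 12 libraries, a replicate block and the omission of each library.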

Additional observations from a re-analysis of the deposited data

Results flagged for a closer look

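The response to TSA of 83 of the 123 named genes differed between the genotypes, by the interaction term of edgeR's quasi-likelihood test over all 12 libraries (adjusted p under 0.05 over all genes). Values are log2 differences, WUS-GR minus Col-0, and beside them stand the 17.7% and 13.3% of all genes called higher and lower. The named genes were picked largely for big changes in WUS-GR or for the interaction itself. A high share of calls in the direction of the WUS-GR change follows from that choice and is no result about these genes. Among all genes called in WUS-GR and for the interaction, 3797 of 4564 interactions went in that direction. With library totals alone 74 of the 83 were called the same way and none was called the other way. The other 9, *IAA11*, *ARF8*, *HDA6*, *CMT2*, *HAG2*, *NIA1*, *WUS*, *RAP2.3* and *CRF6*, were not called then, so their difference between genotypes rests on the scaling (*HDA6* 0.25 in place of 0.58, *NIA1* 0.26 in place of 0.58, *IAA11* 0.64 in place of 0.97). Their causes were not tested.

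Genes that rose in both genotypes and by more in WUS-GR had interactions of 3.57 for *TPD1*, 3.30 for *GNC*, 3.06 for *AT3G60690*, 2.83 for *CGA1*, 2.31 for *MYB77*, 2.29 for *PIN3*, 2.25 for *AT3G08600*, 2.23 for *AT5G12900*, 2.14 for *TCP14*, 1.96 for *HB-2*, 1.88 for *BEE1* and 1.81 for *MYC4*. Smaller ones in this group were 1.81 for *EXPA1*, 1.77 for *TAA1*, 1.70 for *HWS*, 1.58 for *HY5*, 1.57 for *PAO5*, 1.57 for *E2FA*, 1.48 for *EIL1*, 1.46 for *WRKY21*, 1.42 for *UGT78D2*, 1.30 for *CRF2*, 1.23 for *WES1* and 1.15 for *NCED3*. The least were 1.12 for *KAN2*, 0.97 for *IAA11*, 0.82 for *CMT2*, 0.81 for *HSP81-3*, 0.74 for *ARF8*, 0.68 for *HAG2*, 0.60 for *HD2C*, 0.58 for *HDA6* and 0.58 for *NIA1*. By less in WUS-GR rose genes at -0.73 for *LHCB2.3* and -0.48 for *LNK3*. Genes that rose in WUS-GR and were not called in Col-0 stood at 6.10 for *GPT2*, 3.86 for *BBX14*, 3.39 for *ICS1*, 2.07 for *ATCG00920*, 0.73 for *SNL6*, 0.72 for *WUS* and 0.62 for *RAP2.3*. The rise in WUS-GR beside a fall in Col-0 gave 3.78 for *KCS1*.

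Genes that fell in both and further in WUS-GR had interactions of -3.01 for *RLP52*, -1.71 for *WAKL10*, -1.65 for *PRR3*, -1.57 for *JAZ5*, -1.57 for *AIRP1*, -1.51 for *ROT3*, -1.46 for *FRK1*, -1.23 for *AAT1*, -1.07 for *ACS2*, -1.0 for *PHYD*, -0.84 for *HAC12* and -0.63 for *AT1G13880*. Smaller ones among these falls were -0.59 for *GID1C*, -0.53 for *SNL4*, -0.45 for *HDA9*, -0.44 for *VRN2* and -0.34 for *TPS10*. The fall was less deep in WUS-GR at 1.16 for *CYP81D8*, 1.15 for *PYL5* and 0.71 for *CRF6*. Genes that fell in WUS-GR and were not called in Col-0 stood at -1.50 for *IAA30*, -1.32 for *ZPR1*, -1.28 for *STOMAGEN*, -1.19 for *DOG1*, -1.14 for *ICK1*, -0.56 for *ARF1* and -0.40 for *HDA15*. Falls in WUS-GR beside rises in Col-0 gave -4.20 for *AT3G22410*, -3.39 for *AT4G16563*, -3.07 for *BRU6*, -2.66 for *ADH1*, -2.59 for *XTH6*, -1.81 for *ARR9* and -1.70 for *ARF5*.

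In *GATA15*, *AT1G30280*, *ACS8*, *MSRB7*, *AT3G50420* and *AT5G56960* a WUS-GR group was at the floor of 3 counts per library, so the fitted interactions of 2.36, 3.04, 3.73, -5.21, -2.92 and 5.56, in this order, are no measure of size.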

How the results depend on the processing

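With library totals alone 3855 genes were called higher and 9210 lower with TSA in WUS-GR, so that 29.5% of calls were higher in place of 48.3%, and the interaction called 1570 genes higher and 5736 lower. A 2-fold minimum left 5743 genes in WUS-GR, 2671 higher and 3072 lower. Thresholds of 0.1 and 0.01 gave 13351 and 11015, and DESeq2 gave 12074, 10406 in Col-0 and 5396 for the interaction. Leaving out 1 library at a time gave 11958 to 12414 genes in WUS-GR (5762 to 6002 higher, 6196 to 6412 lower), 9829 to 10752 in Col-0 (4816 to 5311, 5013 to 5441) and 4525 to 5383 for the interaction (2593 to 3057, 1932 to 2343). A replicate block gave 12567, 11313 and 5682. It moved no count by more than 1.5 times, and the replicate numbers did not pair the samples (r of same-numbered deviations -0.03, 0.04 and 0.16 in WUS-GR). Of 1569 values of the 123 named genes under the alternatives, 1560 kept their direction and call and none reversed. The call was lost for *SHR* in 7 settings (adjusted p = 0.13 with DESeq2) and, with library totals alone, for *ATMG01390* (0.0601) and *RAP2.3* (0.177). Of 44 list medians 12 turned sign with library totals alone. The causes were not tested. The lowest floor among the WUS-GR libraries was 0.129 CPM and the highest 0.228 CPM, and a gene below these could not be told from absent.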

Other observations

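The classes in this paragraph come from the gene descriptions of the annotation and were picked after their values were seen, so they are descriptions alone. Pentatricopeptide repeat proteins, which bind organelle RNA and act in its editing and splicing, fell in 142 of 199 cases with TSA in the WUS-GR seedlings and rose in 22, which is 71.4% and 11.1% beside 38.1% and 35.6% of all genes tested. Their median log2 fold change was -1.21 beside -0.03 over all genes, and -0.66 in Col-0, where 96 of 176 fell and 17 rose. The interaction was called lower for 23 of the 199 and higher for 10. Some members entered the test through their libraries without TSA, such as *AT3G08820*, at 0.859 CPM without and 0.0438 CPM with TSA. *AT5G40400*, at 0.379 CPM without and 2.23 CPM with TSA, entered through its TSA libraries. The count filter thus set the direction of such members, and their part of the count is no support for a direction of the class. *AT3G25970* and *AT4G20770*, which belong to this class, had no count in any library with TSA, and 17 of the 130 genes present without TSA alone belong to it, as do 1.17% of all genes tested. F-box proteins fell in 69 of 139 cases (49.6%) and rose in 34 (24.5%), beside the 38.1% and 35.6% of all genes, with a median of -0.37.

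Further classes of gene descriptions were also picked after their values were seen, and beside them stand 35.6% higher and 38.1% lower of all genes tested. Receptor-like and leucine-rich repeat kinases rose in 77 of 135 cases (57.0%) and fell in 39 (28.9%), with a median of 0.57. Enzymes of pectin and the cell wall rose in 55 of 108 cases (50.9%) and fell in 28 (25.9%), with a median of 0.58. The bHLH proteins rose in 44 of 81 cases (54.3%) and fell in 18 (22.2%), with a median of 0.53. Ribosomal proteins were called less often than all genes, with 74 of 305 higher (24.3%) and 92 lower (30.2%). Of the 305, 139 were not called, beside 4500 of all 17079 genes tested, and their median was -0.02. Of the annotated long noncoding RNAs 154 of 3480 had enough counts to test, and 23 rose and 57 fell. That is 14.9% and 37.0% beside 35.6% and 38.1% of all genes tested. Shares of genes with a single exon were taken over protein-coding genes with annotated exons. They were 16.0% among those at least 2-fold higher, 15% among those at least 2-fold lower and 8.98% among the others tested. The 3 sets also differed in level, with median values of 5.3, 7.45 and 16.4 CPM without TSA, and the 2 were not separated.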
